A study of Mus musculus with 8 samples.

Results

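Cytotoxic effector genes are 9 genes of the killing and signalling programme of lymphocytes: the granzymes Gzma, Gzmb, Gzmk and Gzmm, the pore-forming Prf1, the granule membrane gene Nkg7, the chemokines Ccl5 and Xcl1, and the cytokine Ifng. They were chosen by symbol, and all 9 of them were found once among the 32285 genes counted in each of 8 samples. Their levels were read in natural killer (NK) cells and T cells of the heart and in whole heart sections. An NK cell was a kept cell with at least 2 UMIs (unique molecular identifiers, each standing for 1 captured transcript) of Ncr1, Klrb1c and Klre1 together and none of Cd3d, Cd3e and Cd3g, the genes of the CD3 chains of the T cell receptor complex. A T cell had at least 2 UMIs of these Cd3 genes. None of the 9 genes took part in either definition. The definitions gave 572 NK cells and 787 T cells of 26188 kept cells.

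The samples were hearts of wild-type male C57BL/6J mice, aged 8 weeks at the operation. Sham mice had the operation without a ligature, and the other mice had transverse aortic constriction (TAC), a suture around the aortic arch that raises the pressure load on the left ventricle. Hearts were taken 2, 4 and 6 weeks after TAC (named TAC-2w, TAC-4w and TAC-6w). Each of the 4 conditions gave 1 single-cell library (scRNA) and 1 spatial section (ST). No time after surgery is labelled for sham. The number of mice behind a library was not given in the sources used here, and the labels describe a preparation of nuclei whereas the study's methods describe cells. With 1 library and 1 section a condition there was no replicate of a condition, so comparisons of TAC with sham below carry intervals for counting error only and no test. By the labels, the sham and TAC-6w libraries were in batch 3, TAC-2w in batch 1 and TAC-4w in batch 2, while the sham and TAC-2w sections were in batch 1, TAC-4w in batch 2 and TAC-6w in batch 3. Condition and batch cannot be told apart for TAC-2w and TAC-4w in the libraries, nor for TAC-4w and TAC-6w in the sections.

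A cytotoxic lymphocyte stores granzymes, which are serine proteases, and perforin in secretory granules and releases them against a bound target cell. Perforin opens the target's membrane and the granzymes enter and cut proteins inside it. Nkg7 codes for a membrane protein of these granules. The same cells secrete Ccl5, which attracts lymphocytes and monocytes, Xcl1, which attracts the conventional dendritic cells that carry Xcr1, and interferon gamma (Ifng), which activates macrophages through the receptor pair Ifngr1 and Ifngr2. In the heart these genes mark NK cells and effector T cells, which are few among fibroblasts, endothelial cells and macrophages.

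Promoter windows of 300 bases, from 250 before to 50 after the transcription start, were taken from RefSeq on build GRCm38.p6 for 8 of the 9 genes. Ccl5 is named only. They are shown for the granule genes Gzmb and Nkg7, whose windows held matches to more than 1 of 5 motif strings searched on both strands, and for Ifng and Xcl1, the cytokine and chemokine that were low together in the TAC-4w library. The Gzmb window is chr14:56262285-56262584 on the minus strand, that of Nkg7 is chr7:43436888-43437187 on the plus strand, that of Ifng is chr10:118440796-118441095 on the plus strand and that of Xcl1 is chr1:164935473-164935772 on the minus strand. Each is printed 5′ to 3′ along the gene, and capitals mark motif matches.
Gzmb: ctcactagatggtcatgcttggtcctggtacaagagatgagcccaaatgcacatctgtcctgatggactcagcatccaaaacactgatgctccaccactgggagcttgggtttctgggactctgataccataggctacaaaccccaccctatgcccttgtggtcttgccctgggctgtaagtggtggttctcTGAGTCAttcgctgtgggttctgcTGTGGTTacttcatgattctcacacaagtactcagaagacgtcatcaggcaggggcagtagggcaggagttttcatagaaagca
Nkg7: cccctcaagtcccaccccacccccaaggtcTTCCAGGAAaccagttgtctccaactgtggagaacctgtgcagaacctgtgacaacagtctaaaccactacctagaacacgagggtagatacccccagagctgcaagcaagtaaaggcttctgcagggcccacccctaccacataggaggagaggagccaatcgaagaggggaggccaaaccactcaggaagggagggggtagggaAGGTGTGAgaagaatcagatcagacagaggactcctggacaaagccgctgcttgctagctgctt
Ifng: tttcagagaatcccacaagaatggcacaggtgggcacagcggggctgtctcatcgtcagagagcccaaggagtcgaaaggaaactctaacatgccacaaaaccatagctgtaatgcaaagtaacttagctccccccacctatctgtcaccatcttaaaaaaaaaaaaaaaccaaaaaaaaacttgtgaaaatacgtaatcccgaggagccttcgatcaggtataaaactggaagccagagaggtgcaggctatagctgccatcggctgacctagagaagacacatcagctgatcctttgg
Xcl1: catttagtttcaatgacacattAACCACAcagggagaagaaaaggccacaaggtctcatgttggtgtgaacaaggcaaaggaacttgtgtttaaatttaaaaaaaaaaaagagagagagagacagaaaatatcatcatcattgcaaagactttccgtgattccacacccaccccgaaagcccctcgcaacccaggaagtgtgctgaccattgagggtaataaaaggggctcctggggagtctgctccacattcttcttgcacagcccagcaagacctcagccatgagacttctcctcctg
The strings were AGGTGTGA for T-box factors, found in 1.28% of 32851 promoter windows of the same length, TGTGGTT for RUNX factors (5.27%), TGACTCA for AP-1 (5.20%), TTCCNGGAA for STAT factors (1.15%) and ACCGGAAG for ETS factors (2.30%). Gzmb had a RUNX match and, on the opposite strand, an AP-1 match. Nkg7 had a T-box match and a STAT match, whose string reads the same on both strands. Xcl1 had a RUNX match on the opposite strand. Gzma, not printed, also had a RUNX match on the opposite strand. No match lay in the windows of Ifng, Gzmk, Gzmm or Prf1. No pair of these matches overlapped. A match describes letters and not a bound site, and no reading in these data bears on binding.

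The sham library kept 7965 cells and the TAC libraries 6293, 6531 and 5399 by time, with 28793316 to 86671674 UMIs per library before filtering. The TAC-4w library stood apart in its make-up: cells with fibroblast markers numbered 324 there and 2673 to 3862 in the others, and cells with B cell markers numbered 2014 there and 125 to 812 in the others. Pairs of libraries shared 9 to 30 cell barcodes. The sections held 1676, 2063, 1228 and 2193 spots with sham first and the TAC sections following by time, an order kept below wherever 4 values follow each other.

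NK cells numbered 158, 34, 339 and 41, or 1.98%, 0.540%, 5.19% and 0.759% of kept cells. T cells numbered 158, 149, 429 and 51, or 1.98%, 2.37%, 6.57% and 0.945%. Both were the most frequent in the TAC-4w library. Few NK cells lay at the limit of the definition: 5, 1, 6 and 7 of them had exactly 2 UMIs of the NK genes, and a further 39, 23, 49 and 9 cells without Cd3 UMIs had 1 and were left out. Of T cells, 13, 11, 29 and 7 had exactly 2 Cd3 UMIs, and 59, 54, 173 and 33 cells had 1. The median NK cell held 4542, 5477.5, 4591 and 2480 UMIs and the median T cell 4937.5, 5893, 5698 and 2961, so cells of the TAC-6w library were the shallowest. UMIs of B cell, macrophage, neutrophil, fibroblast or endothelial markers (at least 2 of one kind) were present in 23, 9, 25 and 4 NK cells and in 27, 31, 91 and 3 T cells.

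Of the UMIs of the 9 genes in kept cells, 92.8%, 90.2%, 95.5% and 79.4% lay in NK and T cells, which made up 3.97%, 2.91%, 11.8% and 1.70% of the cells and held 2.48%, 1.85%, 12.0% and 1.05% of all UMIs. The 9 genes divided into groups by where their UMIs lay. Prf1 and Gzma were counted mostly in NK cells, which held 85.5%, 73.6%, 90.1% and 76.0% of Prf1 UMIs and 80.2%, 82.6%, 90.0% and 79.5% of Gzma UMIs. Gzmk was counted mostly in T cells, with 71.4%, 96.7%, 85.7% and 100% of its UMIs. Gzmm was the exception, since NK and T cells together held only 36.2%, 39.6%, 82.0% and 30.0% of its UMIs. The other 5 genes had 70.3% to 96.5% of their UMIs in NK and T cells. Loosening both definitions to 1 UMI raised the share of all 9 genes to 96.5% to 98.8%, and tightening them to 3 UMIs gave 70.0% to 95.3%.

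NK cells carried Gzma, Gzmb, Prf1, Nkg7, Ccl5 and Xcl1 at higher levels than T cells did, T cells carried more Gzmk, and Gzmm and Ifng did not pass the test. Levels are given in CPM, the gene's UMIs per 1000000 UMIs of all genes summed over the cells of a kind in a library. UMIs count molecules and are not divided by gene length, so levels are compared here between cells and not between genes. NK and T sums were compared in edgeR's quasi-likelihood test with the library as a block, which takes each library's NK sum against its own T sum, and p-values were adjusted over all 7236 genes tested. The 4 libraries are different conditions and batches, so these p-values measure how steadily the NK to T difference recurred across them. Of the 9 genes, 6 were higher in NK cells, where 5.38% of all genes tested were, and 1 was lower, where 7.01% of all genes tested were. The median log2 difference was 1.92 over the 9 genes and -0.02 over all genes tested.

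Gzma, a granzyme with trypsin-like specificity, lies at chr13:113093824-113100981, overlapping the span annotated for Cdc20b. Its level was 13107, 10807, 14228 and 6158 CPM in NK cells and 1968, 181, 451 and 89.5 CPM in T cells. The lowest NK value lay above the highest T value, and the T value of sham stood far above the other three. NK cells held more Gzma in all 4 libraries, by a log2 fold change of 4.77 (SE 0.48, edgeR adjusted p = 0.000127). The size of the difference was uneven: the ratio of NK to T level was 6.66 in sham (95% interval 6.34 to 6.99) and 59.7, 31.5 and 68.8 after TAC. A Gzma UMI was found in 95.6%, 88.2%, 98.5% and 63.4% of NK cells and in 21.5%, 13.4%, 15.2% and 7.84% of T cells.

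Gzmb, the granzyme that cleaves after aspartate and activates caspases, lies at chr14:56258836-56262334. It reached 1212, 1177, 1109 and 384 CPM in NK cells and 442, 225, 167 and 119 CPM in T cells. In each library the NK value was above the T value, although the NK value of TAC-6w lay below the T value of sham. The log2 fold change was 2.01 (SE 0.22, edgeR adjusted p = 0.000212). Against CD8 T cells alone, which are described below, the difference was 0.99 (SE 0.22, edgeR adjusted p = 0.00927).

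Gzmk, a granzyme with trypsin-like specificity that is typical of some CD8 T cells, lies at chr13:113171630-113180965. It went the other way, with 21.6, 4.58, 8.47 and 0 CPM in NK cells, from 18, 1, 15 and 0 UMIs, and 46.0, 28.4, 41.4 and 53.7 CPM in T cells. All 4 T values lay above all 4 NK values. The count of 0 in the 41 NK cells of TAC-6w allows a level of up to 26.2 CPM. The log2 fold change was -2.0 (SE 0.39, edgeR adjusted p = 0.0077), and without the TAC-4w library it was not called (edgeR adjusted p = 0.123). The few NK cells with a Gzmk UMI, 9, 1, 12 and 0 in number, all held Gzma UMIs too.

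Gzmm, a granzyme that cleaves after methionine, lies at chr10:79689020-79695261, 622 bases from Cdc34. Its counts in lymphocytes were low, with 7, 4, 17 and 3 UMIs in NK cells (8.40, 18.3, 9.60 and 26.2 CPM) and 14, 17, 83 and 6 in T cells (14.3, 16.6, 28.7 and 35.8 CPM). NK and T values overlapped, and the difference of -1.10 on the log2 scale (SE 0.38) did not pass the test (edgeR adjusted p = 0.0908). Against CD8 T cells alone it was -2.63 (SE 0.37, edgeR adjusted p = 0.000389).

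Prf1, the gene of perforin, lies at chr10:61297751-61304684. Its level was 1184, 1021, 1398 and 689 CPM in NK cells and 99.2, 49.9, 51.8 and 17.9 CPM in T cells. The lowest NK value was above the highest T value, and the log2 fold change of 4.25 (SE 0.23, edgeR adjusted p = 5.21e-06) came with a ratio of NK to T level of 11.9 in sham (95% interval 9.68 to 14.9) and of 20.5, 27.0 and 38.5 after TAC. A UMI of both Gzma and Prf1 was present in 91.1%, 85.3%, 96.5% and 51.2% of NK cells and in 12.0%, 2.68%, 6.29% and 0% of T cells. At the limit of 3 counts, 0 among 51 T cells allows a share of cells with such UMIs of up to 5.88%.

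Nkg7 lies at chr7:43437138-43438246. It reached 3585, 3073, 3927 and 2765 CPM in NK cells and 1112, 650, 660 and 930 CPM in T cells, with no overlap between the cell types. The log2 fold change was 1.92 (SE 0.19, edgeR adjusted p = 0.000104). It was the most widely detected granule gene in T cells, with a UMI in 58.2%, 47.0%, 44.5% and 62.7% of them and in 99.4%, 100%, 98.5% and 90.2% of NK cells.

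Ccl5 lies at chr11:83525778-83530518, overlapping the long non-coding RNA gene Gm32650. It was at 25883, 18748, 18715 and 15840 CPM in NK cells and at 8740, 4879, 5342 and 9799 CPM in T cells, so the lowest NK value was above the highest T value. The log2 fold change was 1.41 (SE 0.21, edgeR adjusted p = 0.00164). Against CD8 T cells alone, however, Ccl5 did not pass the test (0.58, SE 0.22, edgeR adjusted p = 0.115), and in the TAC-6w library it was higher in CD8 T cells (18456 CPM) than in NK cells (15840 CPM).

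Xcl1 lies at chr1:164931644-164935522. Its level was 1293, 1493, 221 and 2311 CPM in NK cells and 378, 471, 30.7 and 441 CPM in T cells. The TAC-4w library was lowest for both cell types, and its NK value lay below the T values of the other three libraries. Within each library NK cells were higher, by a log2 fold change of 2.05 (SE 0.19, edgeR adjusted p = 7.53e-05). Without the block on library, which leaves the spread between libraries in the error, this call was lost (edgeR adjusted p = 0.176). Against CD8 T cells alone the difference grew to 4.25 (SE 0.24, edgeR adjusted p = 2.9e-07).

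Ifng lies at chr10:118441046-118445894. It was at 452, 467, 63.2 and 427 CPM in NK cells and at 188, 183, 66.0 and 239 CPM in T cells. Outside TAC-4w the NK value was above the T value in each library, whereas in TAC-4w both were low and their ratio was 0.958 (95% interval 0.753 to 1.22). The log2 fold change of 0.77 (SE 0.25) did not pass the test (edgeR adjusted p = 0.0774), and it did without the TAC-4w library (edgeR adjusted p = 0.0117), without T cells that also carried NK genes (1.00, edgeR adjusted p = 0.0453) and with no filter on low counts (0.75, edgeR adjusted p = 0.00096). Under the other alternatives its adjusted p was 0.0528 to 0.72. Against CD8 T cells alone it was 0.22 (SE 0.32, edgeR adjusted p = 0.72).

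**Figure D1:**
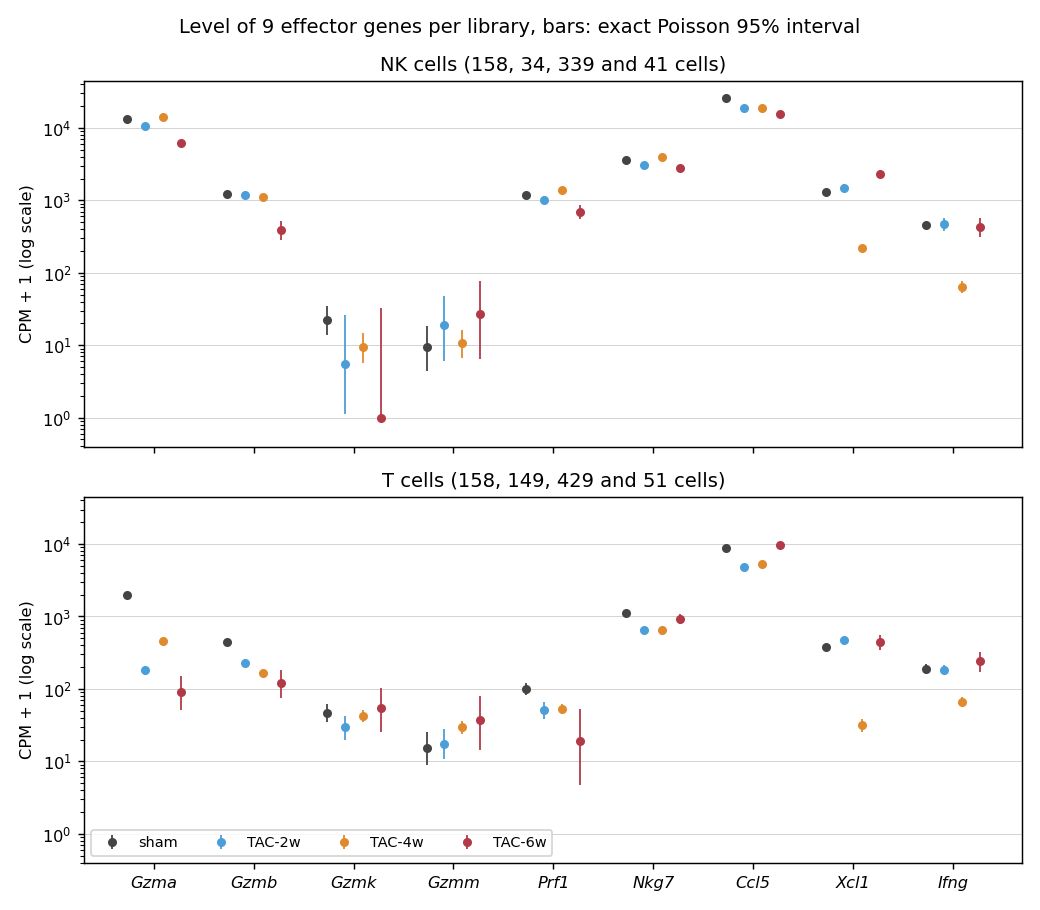
Level of each of the 9 genes in NK cells (upper panel) and T cells (lower panel) of the 4 single-cell libraries, in CPM plus 1 on a log axis, 1 point per library and bars for the exact Poisson 95% interval (counting error only). NK points lie above T points for most genes and below them for Gzmk, and the TAC-4w points of Ifng (63.2 CPM) and Xcl1 (221 CPM) lie below those of the other libraries in NK cells.

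**Figure D2:**
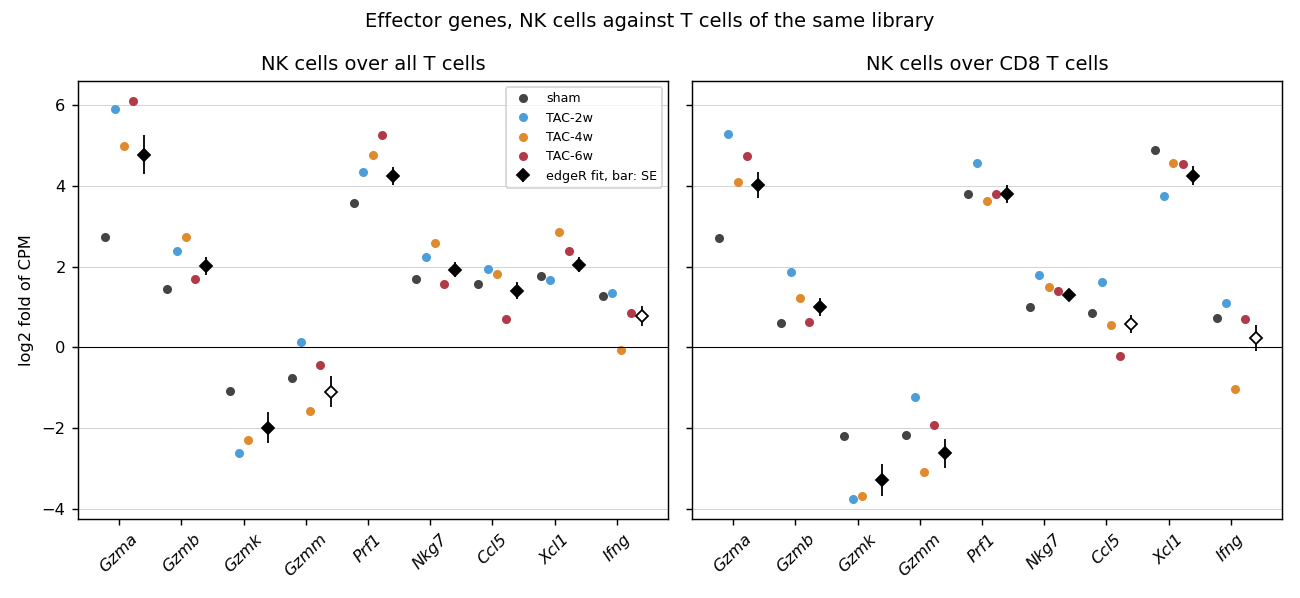
Log2 ratio of the NK level to the level in all T cells (left) and in CD8 T cells (right) for each gene, with a dot per library and a diamond with its SE for the edgeR estimate, filled where the adjusted p is under 0.05. Gzmk of TAC-6w has no dot in either panel, since its ratio was 0. Prf1 and Gzma lie far to the NK side in both panels, Gzmk lies to the T side, and Ccl5 and Ifng lie close to 0 against CD8 T cells (0.58 and 0.22).

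NK cells also carried more genes per cell. At least 5 of the 9 genes had a UMI in 93.0%, 91.2%, 91.7% and 51.2% of NK cells, and none had one in 0, 0, 0 and 2 NK cells. None of the 9 had a UMI in 33.5%, 44.3%, 42.4% and 29.4% of T cells. NK cells of TAC-6w had the lowest share with at least 5 genes and the lowest median of UMIs. At equal depth, with each cell thinned to 1000 UMIs, the TAC-6w library was still lowest for Gzma and Prf1: Gzma was found in 93.0%, 85.3%, 98.2% and 64.1% of NK cells and Prf1 in 66.2%, 55.9%, 70.6% and 48.7%.

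Free RNA can give UMIs in cells that do not express a gene, so the levels in cells of other lineages are given here, and whether they come from free RNA was not tested. Fibroblasts, with a median of 6225 to 13339 UMIs, had a Gzma UMI in 0.150% to 4.94% of cells and a Ccl5 UMI in 0.748% to 12.0%, both highest in the TAC-4w library. Macrophages had 27.5, 10.9, 16.3 and 32.3 CPM of Ccl5 and fibroblasts 5.49, 0.966, 8.80 and 1.63 CPM, far under the T cell values. Gzmk had no UMI in fibroblasts or macrophages of any library and 1 in B cells, and Gzmm was at 0.130 to 1.72 CPM in fibroblasts and macrophages.

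Other genes of the same machinery were counted in the same fit. Of 20 further granule and death-ligand genes 15 were tested, 5 were higher in NK cells and 1 was lower, with a median log2 difference of 0.36. The higher ones included the protease inhibitors Serpinb9 (2.75) and Serpinb6b (2.52), which protect the killer cell from granule proteases, the cystatin Cst7 (1.57), Fasl (1.45), the ligand of the death receptor Fas, and the cysteine protease Ctsw (1.44). The inflammatory cytokine Tnf was lower in NK cells (-3.26). The release machinery genes Unc13d (0.67), Rab27a (0.36), Stx11 (0.25) and Stxbp2 (0.31) did not pass the test, and Gzmd, Gzme, Gzmg and Gzmn had no UMI in NK or T cells.

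On the side of ligands and receptors, 4 of 8 genes were tested and all 4 were higher in NK cells, among them the inflammatory chemokines Ccl3 (2.91) and Ccl4 (2.14) and the receptor gene Ifngr1 (0.79). Of 6 targets of interferon gamma signalling 4 were tested, and Cxcl10 (1.85) and Irf1 (0.70) were higher in NK cells, while the feedback inhibitor Socs1 (-0.38) was among those that did not pass. Genes of cell identity were read in the same fit. The cells were defined by NK receptor and Cd3 genes, so the direction of these identity lists is no independent check. Of 16 NK receptors and factors, 15 were higher in NK cells, led by the activating Ly49 receptors Klra4 (7.21) and Klra8 (5.45) and the chymase gene Cma1 (5.85), and Cd27 was lower (-1.05). All 10 T cell genes were lower, the coreceptor genes Cd4 (-9.51) and Cd8b1 (-9.26) and Cd5 (-10.12) most of all. Of 6 genes of type 1 innate lymphoid cells (ILC1), a tissue-resident relative of NK cells, 4 were lower in NK cells, among them Il7r (-4.80) and Cxcr6 (-4.37), which many T cells also express.

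Within T cells the 9 genes were unevenly spread. CD8 T cells (a Cd8a or Cd8b1 UMI and no Cd4 UMI) numbered 51, 56, 130 and 20, and CD4 T cells (a Cd4 UMI and no Cd8a or Cd8b1 UMI) numbered 23, 23, 111 and 5. In the same edgeR test over 2954 genes, 3 of the 9 genes were higher in CD8 T cells, where 0.339% of all genes tested were, and none was lower, where 0.271% of all genes tested were. Of the 8 tested genes, 7 had an unadjusted p under 0.05, all of them higher in CD8 T cells, and DESeq2 likewise called 0 of them lower. The median log2 difference was 2.78 over those 8 and 0.02 over all genes tested. Gzmm was not tested there.

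The 3 genes called were Gzma, Prf1 and Gzmk. Gzma was at 1992, 277, 828 and 232 CPM in CD8 T cells and at 45.3, 21.2, 13.6 and 36.5 CPM in CD4 T cells (log2 fold change 5.20, SE 0.44, edgeR adjusted p = 0.000763). Prf1 was at 85.1, 43.1, 113 and 49.7 CPM against 6.48, 7.07, 6.81 and 0 CPM (3.77, SE 0.44, edgeR adjusted p = 0.00397). For both genes the lowest CD8 value was above the highest CD4 value. Gzmk was at 99.8, 61.9, 110 and 133 CPM in CD8 T cells and at 0, 28.3, 12.3 and 0 CPM in CD4 T cells (2.99, SE 0.52, edgeR adjusted p = 0.0418). CD4 T cells of TAC-6w were only 5, and without that library 6 of the 9 genes were higher in CD8 T cells. Without TAC-4w, or without cells that held markers of other lineages, Gzmk and Prf1 had too few counts to be tested, and Gzma was still called. The Gzmk call was also lost without sham (edgeR adjusted p = 0.14) and with no filter on cells (edgeR adjusted p = 0.0862).

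The other genes did not pass that test. Gzmb was 219 CPM in the CD4 T cells of TAC-2w and 19.4, 20.4 and 0 in the other three libraries, against 795, 323, 478 and 249 CPM in CD8 T cells (3.28, SE 0.77, edgeR adjusted p = 0.165). Ccl5 was at 14330, 6130, 12709 and 18456 CPM in CD8 T cells and at 868, 4014, 1436 and 4455 CPM in CD4 T cells, which did not overlap (2.57, SE 0.49, edgeR adjusted p = 0.0643). Ifng gave 1.44 (SE 0.28, edgeR adjusted p = 0.0754) and Nkg7 gave 1.11 (SE 0.27, edgeR adjusted p = 0.228). For Xcl1 the estimate was near 0 (-0.02, SE 0.78, edgeR adjusted p = 0.9996), but its direction differed between libraries. Its level was 44.0, 110, 9.33 and 99.4 CPM in CD8 T cells. In CD4 T cells it was 0, 14.1, 79.0 and 0 CPM. The ratio of CD8 to CD4 level was 7.81 (interval 2.03 to 66.7) in TAC-2w and 0.118 (0.0487 to 0.249) in TAC-4w. Among the NK receptor genes 7 were tested, and Klrc1 (3.42), Klrd1 (3.38) and Klrk1 (2.56), which code for NKG2 receptors and their partner, were higher in CD8 T cells.

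Outside TAC-6w the summed level of the 9 genes was higher in T cells that also carried NK genes than in CD8 T cells. T cells with at least 2 UMIs of Ncr1, Klrb1c and Klre1, a split made after values were seen, numbered 28, 22, 38 and 4. The 9 genes summed to 41383, 20028, 27831 and 18841 CPM in them and to 19443, 8100, 15848 and 20643 CPM in CD8 T cells. Ccl5 made up most of each of these sums, with 14330, 6130, 12709 and 18456 CPM in CD8 T cells. Pooled over the libraries, Gzmk was lower in the T cells with NK genes (79.8 CPM) than in CD8 T cells (97.5 CPM), and Gzmm was close (66.0 and 64.4 CPM). The sets overlapped: leaving out T cells with NK genes left 44, 51, 110 and 19 CD8 T cells. The T cells with NK genes had 26436, 14001, 21450 and 15512 CPM of Ccl5 and 9159, 447, 3315 and 213 CPM of Gzma. They held 1611 of 1925 Gzma UMIs of all T cells in sham and 945 of 1307 in TAC-4w, but 79 of 185 in TAC-2w and 3 of 15 in TAC-6w. Of Xcl1 UMIs they held 293 of 370, 460 of 482, 24 of 89 and 13 of 74. In sham, 25 gamma-delta T cells (a Trdc UMI and no Cd4, Cd8a or Cd8b1 UMI) had 3554 CPM of Gzma and 1494 CPM of Xcl1, and those of the TAC libraries, 8, 40 and 7 in number, had 0, 7.36 and 0 CPM of Gzma.

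**Figure D3:**
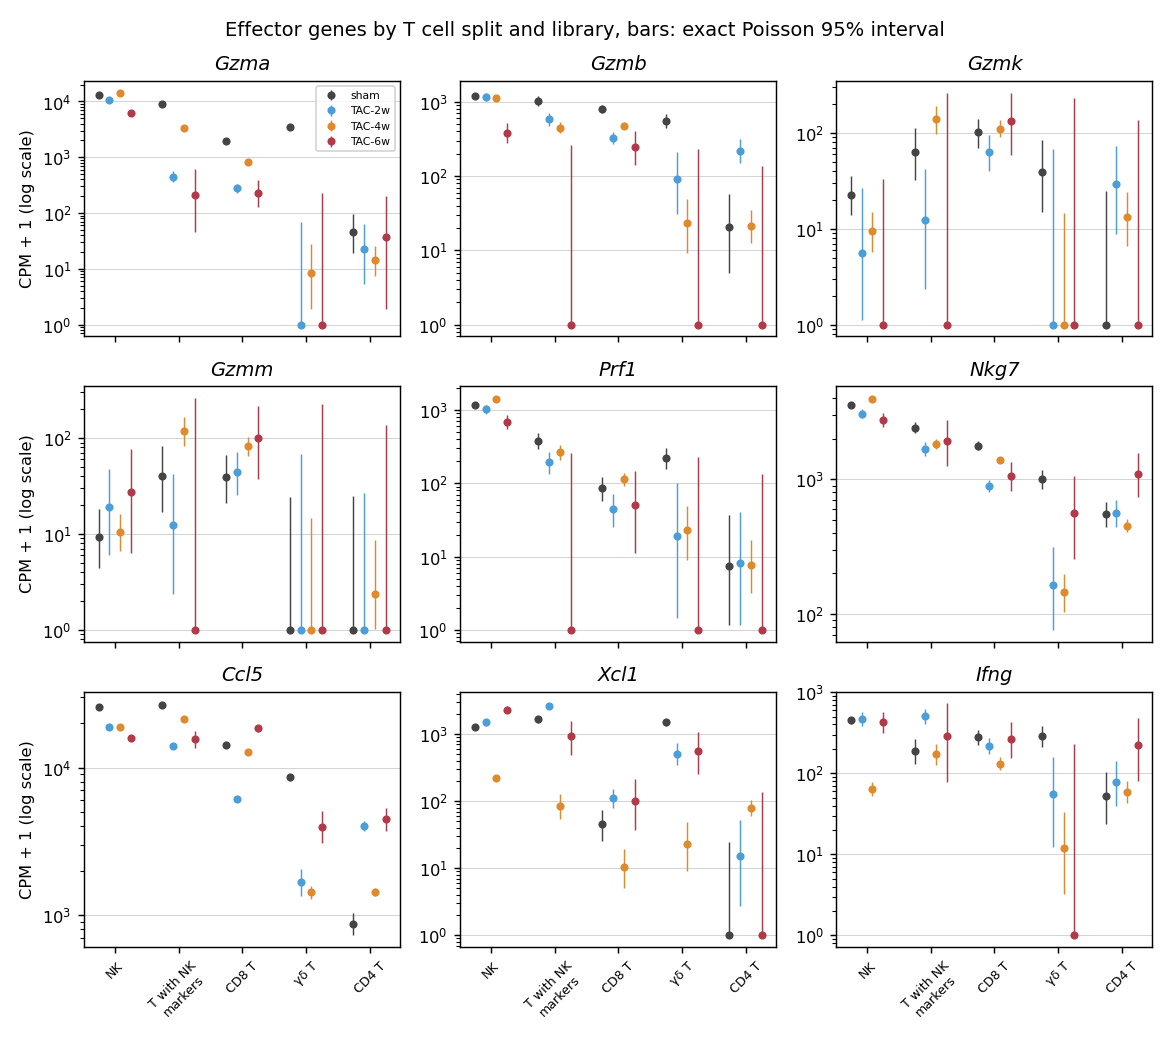
Level of each gene, 1 panel a gene, in NK cells, CD8 T cells, CD4 T cells, gamma-delta T cells and T cells that also carried NK genes, in CPM plus 1 on a log axis, with a point per library. T cells with NK genes reach the NK values for Ccl5 (26436 CPM in sham) and not for Gzma in TAC-2w (447 CPM). CD8 T cells, some of which also carried NK genes, have higher Gzmk values than NK cells, CD4 T cells and gamma-delta T cells.

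Compared with sham, NK cells had less Ifng and Xcl1 at TAC-4w, by at least 2-fold under every alternative setting. Gzmk at TAC-4w and Gzma and Gzmb at TAC-6w were lower too, and of these only Gzmb stayed 2-fold lower under every alternative. Counting genes with at least 20 UMIs in the sums compared, a ratio of at least 2 or at most 0.5 was reached by 0 of 7 members at TAC-2w, by 3 of 9 at TAC-4w, all of them lower, and by 2 of 7 at TAC-6w, both lower. The shares of all such genes that were at least 2-fold higher were 3.6%, 8.26% and 7.5% at 2, 4 and 6 weeks, and the shares at least 2-fold lower were 9.52%, 4.39% and 18.7%. A 2-fold lower level was thus frequent among all genes at TAC-6w, and the 2 of 7 members stand beside that share. The median ratio over the counted members was 0.862, 0.915 and 0.612, and over all counted genes it was 1.00, 1.17 and 0.881.

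In the TAC-4w library Ifng in NK cells was at 63.2 CPM against 452 CPM in sham, a ratio of 0.140 (95% interval 0.112 to 0.173), and Xcl1 was at 221 against 1293 CPM, a ratio of 0.171 (0.152 to 0.192). Gzmk had a ratio of 0.392 (0.184 to 0.824) from 15 and 18 UMIs, and it no longer reached the 2-fold limit with single-cell means, with thinned cells or without ILC1-marked cells. The corresponding Ifng ratios at TAC-2w and TAC-6w were 1.03 (0.822 to 1.29) and 0.945 (0.687 to 1.27), and both intervals include 1. An Ifng UMI was found in 56.3%, 52.9%, 17.4% and 34.1% of NK cells, and after thinning to 1000 UMIs in 24.2%, 32.4%, 6.23% and 28.2%. For Xcl1 the thinned shares were 31.2%, 35.3%, 8.31% and 41.0%. The granule genes of the same TAC-4w cells were close to sham, with ratios of 1.09 (1.06 to 1.11) for Gzma, 0.915 (0.848 to 0.988) for Gzmb, 1.18 (1.10 to 1.27) for Prf1 and 1.10 (1.05 to 1.14) for Nkg7, the Gzma ratio falling to 0.960 when cells were thinned and the Gzmb ratio rising to 1.09 when doublets were kept.

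Other secreted and early-response genes were low in those same cells. Ccl3 was at 1122, 1392, 261 and 532 CPM in NK cells and Ccl4 at 3653, 6452, 964 and 2887 CPM, giving TAC-4w ratios to sham of 0.232 (0.208 to 0.260) and 0.264 (0.249 to 0.280). A list of 8 immediate early genes (Fos, Fosb, Jun, Junb, Egr1, Nr4a1, Dusp1 and Ier2), chosen after values were seen, summed to 5580, 6255, 2661 and 6236 CPM in NK cells and to 5001, 6768, 3512 and 4759 CPM in T cells. Such genes respond within minutes to stimulation and also to tissue dissociation. Their part in the Ifng and Xcl1 values was not tested, and TAC-4w was the only library of batch 2. The receptor gene Ifngr1 had a TAC-4w ratio of 1.91 (1.71 to 2.13) in NK cells.

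In the TAC-6w library, which shares batch 3 with sham, Gzma in NK cells was at 6158 against 13107 CPM (ratio 0.470, 95% interval 0.435 to 0.507) and Gzmb at 384 against 1212 CPM (0.317, 0.229 to 0.428). Prf1 stood at 0.582 (0.457 to 0.732), Nkg7 at 0.771 (0.685 to 0.866) and Ccl5 at 0.612 (0.583 to 0.642), and Xcl1 at 1.79 (1.56 to 2.05). The sum of the 16 NK receptors and factors stood at 0.647 (0.586 to 0.712), near the granule genes. These values rest on 41 NK cells, and the 5 cells richest in the gene held 30.5% of their Gzma UMIs, 52.3% of Gzmb and 68.7% of Xcl1. Of those 41 cells 7 were at the limit of 2 UMIs, and fibroblast markers summed to 262 CPM in them against 4.58 to 102 CPM in the other libraries. The part of other cells' RNA in these values was not tested. Where cells with markers of other lineages were left out, Gzmb reached the 2-fold limit and Gzma did not, and Gzma missed it under 7 of 9 alternatives in all.

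NK cells with a UMI of the ILC1 genes Itga1, Cd200r1 or Cxcr6, a split made after values were seen, were 22, 11, 24 and 8 in number. They had less Gzma, 6606, 5725, 8975 and 0 CPM, than the other NK cells had, 14919, 14559, 14917 and 8429 CPM. They had more Xcl1 in each library, 1943, 3051, 229 and 4370 CPM against 1112, 342, 220 and 1552 CPM, although the TAC-4w values were close together. Without them the Xcl1 ratio of TAC-2w to sham turned from 1.15 to 0.308 (0.221 to 0.419), while the TAC-4w ratios of Ifng and Xcl1 were 0.158 and 0.198. The share of NK cells with an ILC1 UMI was 13.9%, 32.4%, 7.08% and 19.5%. Pooled over the libraries, these ILC1-marked cells also had less Ccl5 (11268 against 22610 CPM), Nkg7 (2450 against 3989), Prf1 (766 against 1390) and Gzmb (558 against 1232). Ifng (362 against 187 CPM) and Gzmk (23.5 against 9.06 CPM) were higher in them. The ILC1-marked cells were deeper, with medians of 3256 to 7750 UMIs against 1818 to 4772, and the part of depth was not tested.

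In T cells Gzma, Gzmb, Prf1 and Nkg7 were lower than in sham in every TAC library, and Gzma most. Nkg7 at TAC-6w did not hold this direction: its ratio was 1.25 with a gate at 1 UMI and 1.02 without T cells carrying NK genes. In CD8 T cells alone Prf1 was lower at TAC-2w and TAC-6w (43.1 and 49.7 CPM against 85.1 CPM in sham) and not at TAC-4w (113 CPM). Counted as above, at least 2-fold lower were 1, 4 and 3 of 9 members at TAC-2w, TAC-4w and TAC-6w, where 2.47%, 4.26% and 22.8% of all counted genes were, and at least 2-fold higher were 0, 1 and 1, where 5.95%, 8.18% and 3.4% were. The higher gene was Gzmm both times, from 83 and 6 UMIs against 14. A 2-fold lower level was frequent among all genes at TAC-6w, and the 3 of 9 members stand beside that share. The median ratio over members was 0.585, 0.522 and 1.12, and over all counted genes 1.04, 1.04 and 0.792.

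Gzma in T cells was at 1968 CPM in sham and at 181, 451 and 89.5 CPM after TAC, ratios of 0.0919 (95% interval 0.0786 to 0.107), 0.229 (0.214 to 0.246) and 0.0455 (0.0254 to 0.0752). Leaving out the T cells that carried NK genes gave ratios of 0.320, 0.354 and 0.200 from 391 CPM in sham, so the direction was the same and the size much smaller. In CD8 T cells the ratios were 0.139, 0.415 and 0.116. Gzmb had ratios of 0.509, 0.378 and 0.270 in T cells and Prf1 of 0.503, 0.522 and 0.180, the last from 3 UMIs. Prf1 spanned 17.9 to 99.2 CPM over the libraries in all T cells and 19.5 to 37.4 CPM in T cells without NK genes. Among the latter Prf1 no longer reached the 2-fold limit at TAC-6w.

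Ccl5 in T cells took another course, with ratios of 0.558 (0.539 to 0.578), 0.611 (0.595 to 0.628) and 1.12 (1.06 to 1.18), and of 0.900 at TAC-6w when cells with markers of other lineages were left out. Ifng and Xcl1 in T cells were low at TAC-4w, as in NK cells, with ratios of 0.351 (0.285 to 0.432) and 0.0812 (0.0637 to 0.103). At TAC-2w and TAC-6w the Ifng ratios of 0.972 and 1.27 had intervals that included 1. The Xcl1 ratios were 1.25 (1.09 to 1.43) at TAC-2w and 1.17 (0.896 to 1.5) at TAC-6w. Of T cell Xcl1 UMIs, the 5 richest cells held 79.5%, 48.1%, 73.0% and 87.8%, and without T cells that carried NK genes the ratios were 0.271, 0.259 and 4.14. The same step took the Ccl5 ratio of TAC-6w from 1.12 to 1.91.

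**Figure D4:**
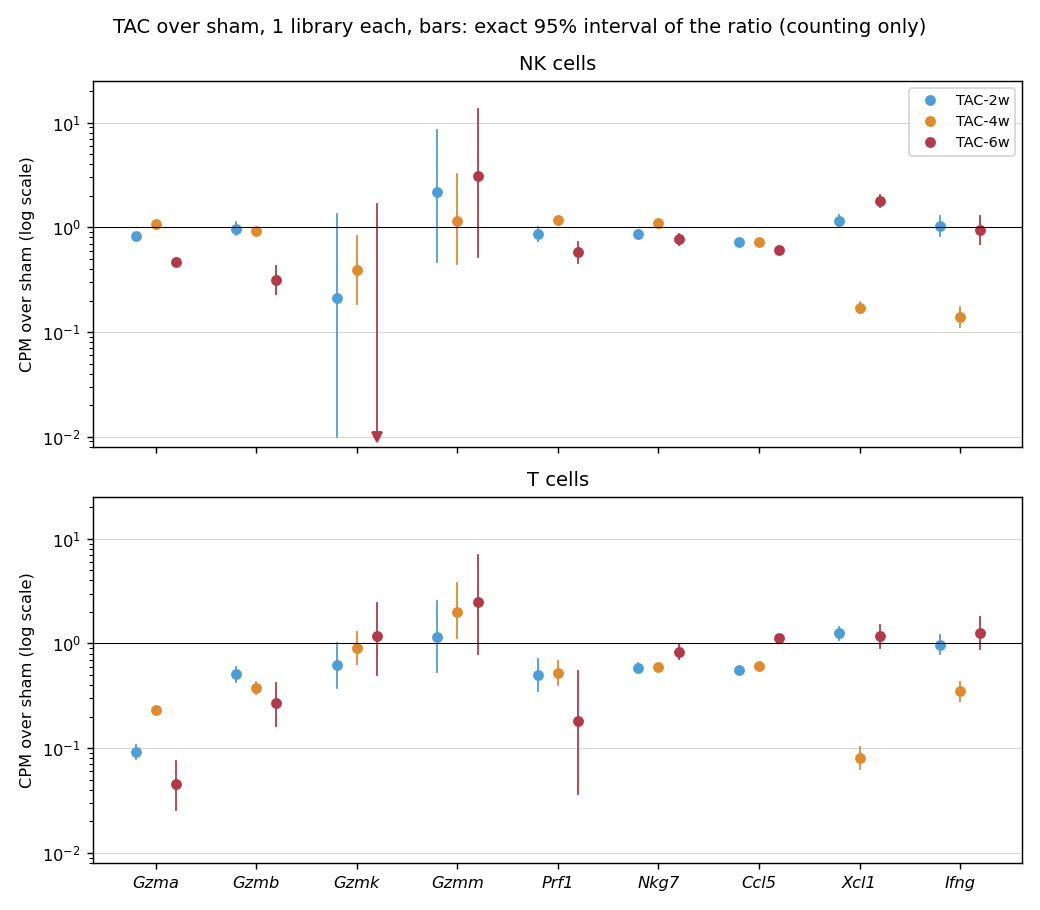
Ratio of each TAC level to the sham level in NK cells and T cells on a log axis, with exact 95% intervals for counting error only, and a triangle where the TAC count was 0. In NK cells the TAC-4w points of Ifng (0.140) and Xcl1 (0.171) stand below the rest while Gzma, Prf1 and Nkg7 lie near 1, and in T cells Gzma lies below 1 at each time (0.0919, 0.229 and 0.0455).

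In heart sections most of the 9 genes were rare and their counts were higher at TAC-4w and TAC-6w than in sham and TAC-2w. A spot covers several cells, and in a section fewer cells of a type and less RNA per cell cannot be told apart. Of members with at least 20 UMIs in the TAC and sham sections together, 0 of 5, 5 of 8 and 6 of 8 were at least 2-fold higher than sham at 2, 4 and 6 weeks, where 1.55%, 7.08% and 7.2% of all counted genes were. At least 2-fold lower were 1, 1 and 0, where 2.2%, 1.86% and 0.898% of all counted genes were, and the lower gene was Xcl1. The median ratio over members was 1.14, 5.29 and 6.89, and over all counted genes 1.02, 1.15 and 1.24.

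Ccl5 was at 2.50, 2.85, 21.7 and 22.7 CPM in the sections, from 65, 139, 693 and 1098 UMIs. The ratio to sham was 1.14 (95% interval 0.843 to 1.56) at TAC-2w, 8.68 (6.72 to 11.4) at TAC-4w and 9.09 (7.08 to 11.9) at TAC-6w. A Ccl5 UMI was found in 1.85%, 4.12%, 26.8% and 25.3% of spots. Sham and TAC-2w, which share batch 1, were close together, and so were TAC-4w and TAC-6w, by the labels of batches 2 and 3. Both higher sections lay outside batch 1, so condition and batch cannot be told apart for them.

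Gzma, Nkg7, Gzmb and Gzmk were likewise higher at TAC-4w and TAC-6w. Gzma had 11, 24, 76 and 144 UMIs, with ratios to sham of 1.16, 5.62 (2.97 to 11.7) and 7.05 (3.82 to 14.4). Nkg7 had 20, 23, 122 and 250 UMIs, with ratios of 0.613, 4.96 (3.08 to 8.41) and 6.73 (4.26 to 11.2). Gzmb had 0, 6, 39 and 39 UMIs, and the intervals of its ratio to sham had lower limits of 8.20 at TAC-4w and 5.43 at TAC-6w. Against the 3 counts a sham count of 0 allows, its measured level was 10.6-fold higher at TAC-4w and 7.00-fold higher at TAC-6w. Gzmk had 1, 1, 21 and 25 UMIs, with ratios of 17.1 (2.75 to 707) and 13.5 (2.20 to 553) at TAC-4w and TAC-6w. Prf1 had 6, 6, 14 and 25 UMIs, and its intervals at TAC-4w and TAC-6w included 1.

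Lymphocyte genes moved in the same sections. The Cd3 genes together had 21, 19, 104 and 255 UMIs and the NK genes Ncr1, Klrb1c and Klre1 had 3, 11, 32 and 38. Spots with a UMI of any of the genes other than Gzmm numbered 54, 121, 406 and 710. Of these spots 7.41%, 3.31%, 13.1% and 17.7% also held a Cd3 UMI, against 0.740%, 0.669%, 3.16% and 4.79% of the other spots. They were also deeper, with medians of 22404.5, 25634, 30232 and 28374 UMIs against 15353.5, 24475, 25987.5 and 16079. B cell markers were found in 5.56%, 4.96%, 3.69% and 4.51% of them, against 1.42%, 1.80%, 3.53% and 3.57%. The part of depth in these shares was not tested. The targets of interferon gamma signalling summed to 45.4, 32.8, 119 and 66.0 CPM, while Ifng itself had 2, 0, 3 and 5 UMIs, too few for a comparison at this depth.

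Gzmm and Xcl1 departed from that pattern. Gzmm was found in 6.38%, 12.9%, 9.53% and 9.94% of spots, from 113, 307, 129 and 241 UMIs, and its level was 4.35, 6.30, 4.04 and 4.99 CPM, with ratios to sham of 1.45 (1.16 to 1.81), 0.929 (0.716 to 1.21) and 1.15 (0.915 to 1.45). In the libraries most Gzmm UMIs outside TAC-4w likewise lay outside NK and T cells: fibroblasts had 0.382, 0.527, 1.10 and 0.841 CPM, and 268 cardiomyocyte-rich cells without NK or Cd3 UMIs (at least 10 UMIs of Myh6, Tnnt2 and Actn2, a set chosen after values were seen) had 6, 3, 2 and 1 Gzmm UMIs, or 6.17, 3.28, 16.6 and 21.1 CPM. These cardiomyocyte-rich cells also held 375 Ccl5 UMIs, 183 CPM pooled over the libraries and 0 to 370 CPM by library, against 5.84 CPM of Gzmm pooled. The origin of these UMIs was not tested. Xcl1 had 42, 9, 5 and 56 UMIs in the sections. The sham value rested on few spots: 1 spot with 8 and the spots touching it that held Xcl1, 4 spots in all, had 19 of the 42 UMIs, and another spot at the tissue edge had 14. Without the 4 spots the sham level was 0.889 CPM in place of 1.62 CPM.

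**Figure D5:**
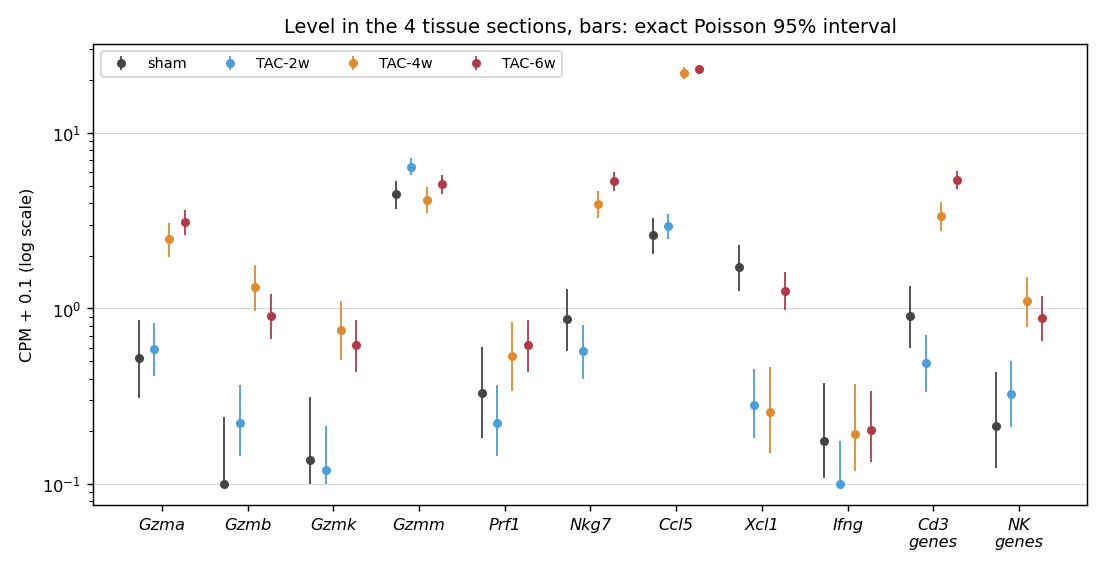
Level of each of the 9 genes in the 4 heart sections, in CPM plus 0.1 on a log axis, with exact Poisson 95% intervals (counting error only). Ccl5 lies at 2.50 and 2.85 CPM in sham and TAC-2w and at 21.7 and 22.7 CPM in TAC-4w and TAC-6w, Gzma, Gzmb, Gzmk and Nkg7 also lie higher in these later sections, and Gzmm stays between 4.04 and 6.30 CPM.

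Genes most like the 9 were ranked by Pearson's r of log2(CPM + 1) over 40 sums, 10 kinds of cells in 4 libraries, which share libraries and depth, so r is a description. The sum of the 9 genes was most like Il2rb, a receptor subunit for interleukins 2 and 15 (r = 0.954), the granule protease Ctsw (0.949) and Klrc1 (0.939). Nkg7 was most like Il2rb too (0.980). Ifng was most like Cd160 (0.986), Gzmk most like Kcnk7 (0.946) and Icos (0.939), and Xcl1 most like the gamma-delta receptor segment Trdv4. Gzma and Prf1 were most like NK receptor genes, among them Klre1 and Klrb1c, which the NK definition itself used.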

How the data were processed

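Hearts of 8 samples were measured by 10x Genomics single-cell RNA-seq and Visium. The authors deposited raw UMI counts per gene and barcode. The labels name Cell Ranger 7.0.0, Space Ranger 1.3.1 and mm10, while headers and methods name other versions. Kits are labelled 3′ and described as 5′.

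Cells with 200 to 6000 genes, 500 to 30000 UMIs and under 15% mitochondrial UMIs were kept, less the 3.2% with the highest Scrublet scores in scanpy, the share that the study's methods remove. All tissue spots were used. Counts were summed per library and cell kind and given as CPM with exact Poisson, conditional binomial (ratios) or Clopper-Pearson (shares) 95% intervals, covering counting error only. NK and T sums, and CD8 and CD4 sums, were compared with edgeR 4.0.16 (R 4.3.3; filterByExpr, TMM, quasi-likelihood, Benjamini-Hochberg, library as block because both sums come from 1 library), tested on simulated data, with DESeq2 1.42.0, other gates and filters as alternatives. A count of 0 allows up to 3 counts. Members and lists were chosen with earlier results of these data known. The 9 members were named with values, as were the 2 to 4 largest called changes of each list, undetected list genes and the 5 (sum) or 3 (member) most alike genes with at least 50 UMIs. Some list genes counted here are not reported by name.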

Additional observations from a re-analysis of the deposited data

Results flagged for a closer look

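The ratio of a TAC library to the sham library lay on opposite sides of 1 in NK cells and T cells for 4 gene and time pairs, with 1 library behind each value and counting intervals that did not include 1. Condition and batch cannot be told apart for TAC-4w. At TAC-4w the ratio to sham of Gzma was 1.09 in NK cells and 0.229 in T cells. In the same libraries the ratio of Prf1 was 1.18 in NK cells and 0.522 in T cells, and that of Nkg7 was 1.10 in NK cells and 0.593 in T cells. In CD8 T cells alone Prf1 was not lower at TAC-4w, with 113 CPM against 85.1 CPM in sham. Gzma (828 against 1992 CPM) and Nkg7 (1389 against 1784 CPM) were lower in CD8 T cells too. At TAC-6w the ratio of Ccl5 was 0.612 in NK cells and 1.12 in T cells. Because each condition had 1 library, the difference between the cell types was not tested. The Gzma ratio in NK cells was 0.960 to 1.00 with thinned cells, single-cell means or without ILC1-marked cells, and the Ccl5 ratio in T cells was 0.900 without cells that held markers of other lineages, so these pairs did not keep their opposite directions under those settings.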

How the results depend on the processing

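Depth and cell numbers limit these results: 34 and 41 NK cells at TAC-2w and TAC-6w, 5 CD4 T cells at TAC-6w, and member counts under 100 for most genes in sections. With 1 library a condition no alternative tests TAC against sham. For every result below the cause of a change was not tested, except that leaving out cells, genes or libraries, or thinning, lowers the counts by construction.

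For NK against T cells the same 6 members were higher and Gzmk lower with DESeq2, RLE normalization, doublets kept, no filter on cells, and gates at 1 or 3 UMIs. Over all genes, gates at 1 UMI gave 160 higher and 245 lower, and no filter on low counts gave 990 lower. Pairing by library was kept as the block because both sums come from 1 library; without the block 259 genes were higher and 295 lower, and Xcl1 was the 1 member whose call was lost. Leaving out cells with markers of other lineages, or taking CD8 T cells only (an alternative chosen after seeing the data), gave 2 members lower, Gzmk and Gzmm. Leaving out 1 library at a time gave 141 to 468 genes higher and 121 to 510 lower, and 0 to 1 members lower. Without TAC-4w the counts were 141 and 121, and without sham 205 and 301.

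For CD8 against CD4 T cells DESeq2 gave 17 genes higher and 13 lower with 6 members higher, no filter on low counts gave 99 and 60 with 8 members higher, and leaving out cells with markers of other lineages gave 13 lower. Without the block 14 genes were higher and 9 lower, with 4 members higher. Leaving out 1 library at a time gave 5 to 31 genes higher, 2 to 20 lower and 1 to 6 members higher. Without TAC-4w 5 genes were higher, 2 lower and 1 member (Gzma) higher, without TAC-6w 31, 20 and 6, and without TAC-2w 3 genes were lower and 5 members higher.

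For TAC-2w NK cells the members at least 2-fold lower were 1 rather than 0 with doublets kept, no filter on cells, a gate at 1 UMI or without ILC1-marked cells. For TAC-6w NK cells 1 rather than 0 was higher (Xcl1) with no filter on cells or a gate at 1 UMI, and 1 rather than 2 lower, Gzma being lost, with single-cell means, thinning, a gate at 3 UMIs, other lineages left out or without ILC1-marked cells. Gzma was also lost, with Gzmk in its place, with doublets kept and with no filter on cells. For T cells at TAC-2w the number lower was 3 with single-cell means or without T cells carrying NK genes, and 2 with thinning, a gate at 3 UMIs or other lineages left out, and 1 was higher without T cells carrying NK genes. At TAC-4w 0 were higher with thinning or no filter on cells. At TAC-6w 0 were higher with thinning, a gate at 3 UMIs or other lineages left out, and a gate at 1 UMI gave 2 higher and 1 lower. In sections single-spot means gave 1 higher at TAC-2w, and thinning to 5000 UMIs gave 0 lower at TAC-2w and TAC-4w, 2 higher at TAC-4w and 3 higher at TAC-6w.

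Ratios to sham that turned direction were mostly near 1. In NK cells at TAC-2w Prf1 turned to 1.02 with other lineages left out and 1.01 without ILC1-marked cells, and Xcl1 to 0.740 with a gate at 1 UMI, 0.941 with other lineages left out and 0.308 without ILC1-marked cells. In NK cells at TAC-4w Gzma turned to 0.996 with single-cell means, 0.960 with thinning and 1.00 without ILC1-marked cells, Gzmb to 1.09 with doublets kept and 1.13 with no filter on cells or a gate at 1 UMI, and the sum of the 9 to 1.03 under the same pair of settings. In T cells Xcl1 at TAC-2w turned to 0.989 with single-cell means and 0.271 without T cells carrying NK genes. In T cells at TAC-6w Nkg7 turned to 1.25 with a gate at 1 UMI and 1.02 without T cells carrying NK genes, Ccl5 to 0.900 with other lineages left out, and the sum of the 9 to 1.2 and 1.64 under the settings named for Nkg7.

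The share of member UMIs in NK and T cells, with sham first and then by time after TAC, was 97.1%, 97.6%, 98.8% and 96.5% with gates at 1 UMI and 90.1%, 84.2%, 95.3% and 70.0% at 3 UMIs, was 93.3%, 89.7% and 95.8% in sham, TAC-2w and TAC-4w with doublets kept, and was 93.2% in sham with no filter on cells.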

Other observations

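In the sham section the 4 spots with the cluster of Xcl1 UMIs, picked after values were seen, also held 93 of the section's 183 UMIs of Cxcl9 and 39 of its 52 UMIs of Cxcl10, the chemokines induced by interferon gamma, 8 of its 21 Cd3 UMIs and 24 of its 65 Ccl5 UMIs. The edge spot with 14 Xcl1 UMIs held no Cxcl9 UMI. The immediate early gene Nr4a1 differed between libraries in NK cells, with 211 CPM in sham and 206, 36.1 and 602 CPM at 2, 4 and 6 weeks of TAC, and Fos had 986, 1525, 243 and 637 CPM.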
